A study of Mus musculus with 6 samples.

Results

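The nucleolar ribosome biogenesis factors are the proteins that transcribe, modify, cut and fold ribosomal RNA in the nucleolus. They were followed here as 50 genes of the 27098 in the deposited table. Their symbols were matched to a fixed pattern that takes the Nop, Utp, Rrp and Nol series, RNA polymerase I subunits Polr1a to Polr1e, and Ncl, Npm1, Fbl, Nolc1, Bop1, Pes1, Dkc1, Mybbp1a, Ddx21 and Gnl3. The pattern reads symbols and uses no measured value, but it was chosen with earlier results of these data known. All 50 are protein-coding, and all 50 passed the filter on low counts. In the table's own annotation 45 of them carry the term nucleolus and 43 a term on ribosomes or ribosomal RNA. Polr1c and Polr1d carry neither. Nol3, Nol4, Gnl3, Nol7 and Nolc1 carry the nucleolus term without a ribosomal one. Of these, Nol3, an inhibitor of apoptosis, and Nol4 are kept apart below because no role in ribosome production was assigned to them, a choice that rests on general knowledge and not on the annotation.

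Ribosome production begins when RNA polymerase I copies ribosomal DNA into a long precursor. Small nucleolar ribonucleoproteins (snoRNPs) then guide its methylation and pseudouridylation, the small subunit processome folds and cuts the 18S part, and a separate set of factors matures the 28S and 5.8S parts of the large subunit. The pathway is a classic target of growth factor signalling through mTOR and MYC, and the growing oocyte is known for a large nucleolus and heavy ribosome production.

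The tissue was whole mouse ovary taken 3 days after birth, when most oocytes lie in primordial follicles, and cultured in DMEM/F12 medium with antibiotics and treated for 2 h. The PRP group received 2% platelet-rich plasma, a plasma fraction rich in platelets and their growth factors, which the series text describes as human and activated with thrombin. The CT group received the medium without it. There were 3 libraries in each group, numbered 1 to 3, and the labels do not say whether they came from separate animals, litters or cultures. P-values therefore measure the spread between these libraries, which may be technical. The comparison bears on whether PRP, described in the series as promoting activation of primordial follicles through PI3K/Akt, moved the transcripts of the ribosome factory within 2 h.

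Libraries held 36037111 to 36568367 counts in PRP and 35568000 to 35825931 counts in CT. The 50 genes took 0.465% to 0.486% of the counts in PRP libraries and 0.471% to 0.494% in CT libraries. Oocyte, granulosa and stromal markers were all detected, with the germ cell helicase Ddx4 at 85.9 ± 4.5 CPM in PRP and 84.1 ± 4.3 CPM in CT, and the granulosa factor Foxl2 at 186.6 ± 9.5 CPM in PRP and 175.6 ± 19.7 CPM in CT (SD, n = 3 each). CPM are counts scaled to the normalised size of the library. Some markers differed with the treatment. With the replicate number as a blocking factor, the zona pellucida genes Zp2 and Zp3 of the oocyte and the epithelial keratin Krt19 were higher in PRP, with log2 fold changes of 0.23 ± 0.04, 0.24 ± 0.04 and 0.36 ± 0.06 (SE) and edgeR adjusted p-values of 0.0331, 0.0411 and 0.0331. Of the 8 stromal markers 0 passed, but 7 had higher values in PRP in all 3 numbered pairs, where 16.8% of all genes tested had them. The same number had an unadjusted p under 0.05 with the block and a higher value in PRP, where 5.31% of all genes did. The median log2 fold change of the stromal list was 0.19. Without the block 0 markers passed. The oocyte list did not share 1 direction in that fit, with 9 of its 12 log2 fold changes above 0 and 3 below. Of the 10 granulosa markers 6 lay above 0 and 4 below, where 49.6% of all genes tested lay below. By numbered pairs, 7 of the 12 oocyte markers were higher in PRP in all 3 and 1 was lower in all 3. With the block, 3 of the 12 were higher and 1 lower at an unadjusted edgeR p under 0.05. Of 6 surface epithelial markers, Krt19 among them, 5 were higher in PRP in all 3 pairs. At that unadjusted level with the block, 4 of the 6 were higher. Library CT 3 stood apart in erythroid genes, whose summed level was 1309 CPM there against 108.2 to 225.0 CPM in the other libraries, and in interferon-stimulated genes, at 310.0 CPM against 144.0 to 202.4 CPM. In a whole organ, fewer cells of a type and less RNA per cell cannot be told apart.

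RefSeq promoters of GRCm38.p6 were matched for 39 of the 50 genes, each from 250 bases before to 50 bases after the annotated start. The E-box CACGTG, which reads the same on both strands and is the core site of MYC and MAX, stood in the window of 9 of the 39 genes (23.1%), and in 10.9% of the 13630 tested genes with a promoter entry. The ETS core CCGGAAG, searched on both strands and unable to overlap the E-box, stood in 12 of the 39 (30.8%) and in 16.8% of the tested genes. The 120 bases just before the start are printed for the 4 genes with an E-box there, and for Ncl and Ddx21, which have none and are the member with the most counts and the member with the smallest p-value. Capitals mark the E-box, which begins 60, 43, 20 and 63 bases before the start in Nop2, Nol11, Utp18 and Utp14b. In Utp14b that start and the printed stretch lie inside the RefSeq span of the gene, which begins at base 78657825. Of its exonic bases 3.2% overlap exons of Acsl3 on the same strand. The stretches lie at chr6:125131763-125131882 on the plus strand, chr11:107189382-107189501 and chr11:93885767-93885886 on the minus strand, chr1:78658320-78658439 on the plus strand, and chr1:86359456-86359575 and chr10:62602299-62602418 on the minus strand.
Nop2: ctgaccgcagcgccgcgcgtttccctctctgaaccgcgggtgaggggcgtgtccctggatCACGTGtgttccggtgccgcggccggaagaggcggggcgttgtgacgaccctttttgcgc
Nol11: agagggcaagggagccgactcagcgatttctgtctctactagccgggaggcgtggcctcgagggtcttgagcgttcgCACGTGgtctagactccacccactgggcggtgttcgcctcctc
Utp18: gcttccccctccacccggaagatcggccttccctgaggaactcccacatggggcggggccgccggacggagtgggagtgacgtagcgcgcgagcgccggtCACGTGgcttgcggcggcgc
Utp14b: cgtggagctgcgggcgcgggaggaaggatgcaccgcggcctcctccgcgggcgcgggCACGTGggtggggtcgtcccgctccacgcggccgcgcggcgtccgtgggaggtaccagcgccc
Ncl: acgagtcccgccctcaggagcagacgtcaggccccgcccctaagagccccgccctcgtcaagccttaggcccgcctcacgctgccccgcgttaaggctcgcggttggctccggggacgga
Ddx21: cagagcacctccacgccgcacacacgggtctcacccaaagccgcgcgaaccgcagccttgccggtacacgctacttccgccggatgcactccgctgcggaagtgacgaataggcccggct
Of the 9 genes with an E-box in the window, 8 had a log2 fold change below 0, where 31 of all 50 members and 49.6% of all genes tested did. The 8 ran from -0.14 in Utp20 to -0.0014 in Nop2. Most of the 9 belong to the small subunit processome, where 14 of 20 genes lay below 0. The fold changes of all 1492 tested genes with an E-box were not compared. The median of the 9 was -0.060, and that of the other matched genes was -0.021. The ETS core went with the other sign, with 5 of its 12 genes below 0 and a median of 0.020, against -0.060 for the matched genes without it. None of these genes passed the test described below.

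Levels were first compared between genes per kilobase of transcript, as the mean over the 6 libraries. Npm1, the nucleophosmin gene whose protein scaffolds the outer nucleolus, led at 454.1 CPM per kb. Ncl, nucleolin, an abundant RNA-binding protein of ribosomal RNA transcription and processing, followed at 109.1, and Fbl, the methyltransferase of box C/D snoRNPs, at 104.6 CPM per kb. These 3 held the first 3 places per kilobase of coding sequence as well, at 681.4, 421.7 and 127.7 CPM per kb. Of the 50 genes, 43 lay above the median level of the 15339 tested genes with a transcript, and 21 lay above its 75th percentile. At the low end stood Utp14b at 2.51, Nol4 at 0.182 and Nol3 at 0.102 CPM per kb of transcript, and they were also the lowest 3 per kilobase of coding sequence. Between these ends the order depended on the length used. Nop58 ranked 34th per kilobase of transcript, with an annotated length of 9507 bases, and 8th per kilobase of coding sequence.

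**Figure D1:**
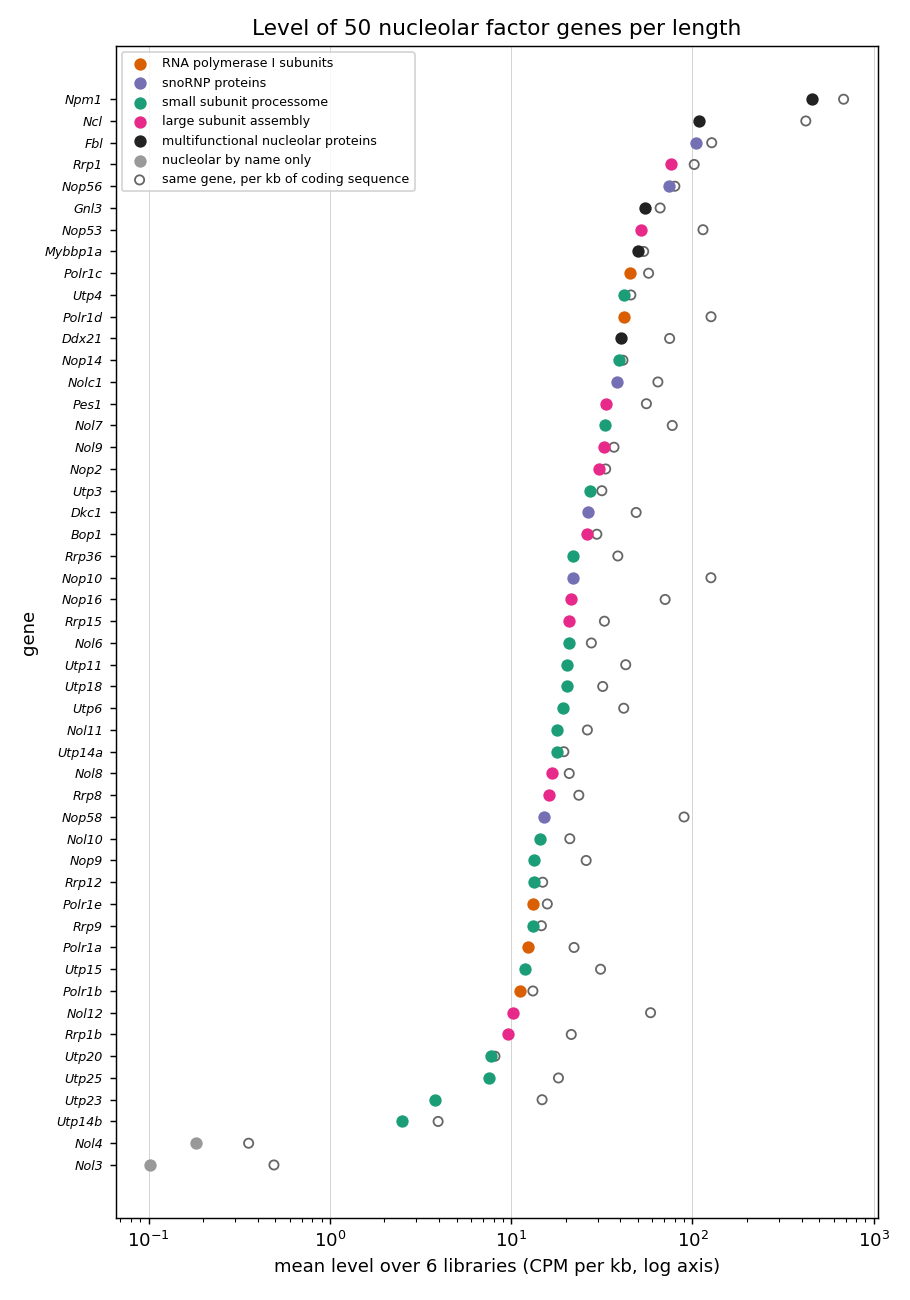
Mean level of each of the 50 genes over the 6 libraries on a log axis, in CPM per kilobase of transcript (filled points, coloured by role) and per kilobase of coding sequence (open circles). Npm1, Ncl and Fbl lead on both scales, Utp14b, Nol4 and Nol3 are lowest on both, and genes with long untranslated ends such as Nop58 shift the most.

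Between PRP and CT the nucleolar genes differed little. At an adjusted p of 0.05, edgeR called 0 of the 50 genes, where 0% of the 17475 genes tested did, and 0 had an unadjusted p under 0.05, where 3.19% of all genes did. DESeq2 and limma-voom likewise called 0 members, with 0 at the unadjusted level. The median log2 fold change, PRP over CT, was -0.0205 for the members and 0.0013 for all genes tested, and 31 of 50 members lay below 0, where 49.6% of all genes did. The summed level was 4614, 4778 and 4922 CPM in PRP 1, 2 and 3, and 4699, 4898 and 4882 CPM in CT 1, 2 and 3. The groups overlapped, with means of 4772 ± 154 CPM in PRP and 4826 ± 111 CPM in CT (SD, n = 3 each).

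The intervals set limits on the size of any change. The 95% interval of the log2 fold change stayed within a 1.25-fold change in either direction for 38 of the 50 genes, and within a 1.5-fold change for 48. The exceptions to the second count were Nol3 and Nol4. Over all genes tested these shares were 35.9% and 61.2%. Narrow intervals were not particular to the members, since over 135 other ribosome biogenesis genes, described below, the shares were 77.0% and 100%. The part of expression level in these shares was not tested. Blocking on the replicate number, since libraries of one number deviated together, called 21 genes of all those tested (0.120%) and 0 of the members. It left 47 of the 50 intervals within a 1.25-fold change, where 49.1% of all genes and 92.6% of the 135 others were.

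**Figure D2:**
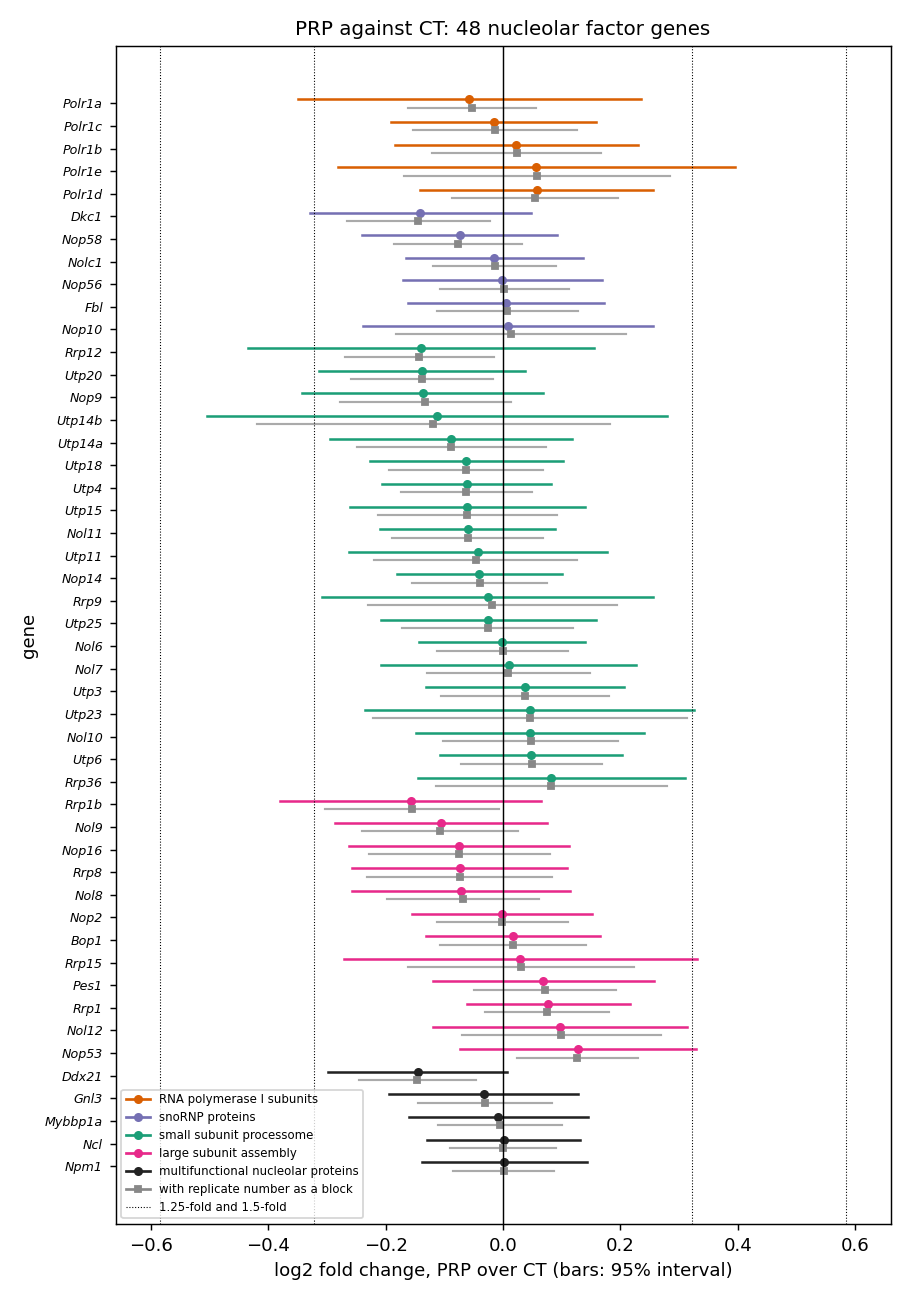
Log2 fold change, PRP over CT, with its 95% interval for 48 genes, ordered by role, without the replicate block (coloured) and with it (grey). Dotted lines mark 1.25-fold and 1.5-fold changes. All coloured intervals cross 0 and stay inside the outer lines. Nol3 and Nol4, with far wider intervals, are left out.

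RNA polymerase I was represented by 5 subunits, and 0 of them passed. Polr1a, the largest catalytic subunit, had 112.4, 98.1 and 126.0 CPM in PRP 1, 2 and 3, and 113.7, 100.3 and 136.2 CPM in CT 1, 2 and 3. The same numbers were low and high in both groups, and each PRP value lay slightly under the CT value of its number. Its log2 fold change was -0.057 ± 0.127 without the block (SE, 95% interval -0.35 to 0.23), and the interval narrowed to -0.16 to 0.056 with it. Polr1b, the second catalytic subunit, had 45.1, 42.0 and 48.6 CPM in PRP and 41.7, 43.3 and 48.5 CPM in CT. Polr1c and Polr1d build the assembly platform shared with RNA polymerase III. Polr1c had 58.9, 61.3 and 57.2 CPM in PRP and 56.0, 58.3 and 65.0 CPM in CT. Polr1d had 53.9, 45.5 and 46.9 CPM in PRP and 49.0, 46.5 and 45.2 CPM in CT. The groups overlapped in all 3 of these genes, with log2 fold changes of 0.023 ± 0.092 for Polr1b, -0.016 ± 0.078 for Polr1c and 0.057 ± 0.088 for Polr1d (SE). Polr1e, which takes part in initiation, varied most in the group, with 19.96, 26.99 and 23.04 CPM in PRP 1, 2 and 3 and 23.73, 24.97 and 18.60 CPM in CT 1, 2 and 3. Its coefficient of variation over the 6 libraries was 13.7%, against a median of 6.58% over the members and 11.9% over all genes tested. Of the Polr1d transcript's 50-base stretches, 30.5% recur in another annotated gene, so its counts are uncertain.

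The snoRNP proteins split into box C/D members (Fbl, Nop56, Nop58), box H/ACA members (Dkc1, Nop10) and the shared chaperone Nolc1. Fbl had 120.8, 123.8 and 131.8 CPM in PRP 1, 2 and 3, and 116.7, 136.6 and 121.8 CPM in CT 1, 2 and 3. Nop56, a scaffold of the same particle, had 134.6, 139.1 and 143.5 CPM in PRP, and 125.9, 140.4 and 151.1 CPM in CT. In both genes the PRP values fell inside the CT range, and the log2 fold changes were 0.0049 ± 0.074 for Fbl and -0.0013 ± 0.075 for Nop56 (SE). Nop58, the partner of Nop56, had 131.7, 135.6 and 155.0 CPM in PRP and 143.2, 148.6 and 152.7 CPM in CT, with PRP lower in pairs 1 and 2 and slightly higher in pair 3. The Nop56 to Nop58 ratio of CPM was 0.99 ± 0.06 in PRP and 0.94 ± 0.06 in CT (SD, n = 3 each). Reads of Fbl and Nop56 are partly ambiguous, with 70.4% and 37.6% of the 50-base stretches of their transcripts found in other annotated genes, pseudogenes among them.

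Dkc1, the pseudouridine synthase dyskerin, had 68.6, 79.4 and 65.1 CPM in PRP 1, 2 and 3, and 77.8, 81.3 and 75.9 CPM in CT 1, 2 and 3. PRP 1 and PRP 3 lay under every CT library and PRP 2 within their range. The log2 fold change was -0.14 ± 0.08 without the block and -0.14 ± 0.06 with it (SE), with edgeR adjusted p-values of 0.9998 and 0.346. Nop10, a small core protein of the same particle, had 24.4, 23.8 and 24.8 CPM in PRP and 22.3, 22.9 and 27.4 CPM in CT. Nolc1 had 130.5, 131.4 and 142.1 CPM in PRP and 132.1, 131.1 and 144.9 CPM in CT. Neither differed beyond the spread between libraries, with log2 fold changes of 0.0083 ± 0.1097 for Nop10 and -0.015 ± 0.067 for Nolc1 (SE).

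The small subunit processome was the largest group, with 20 genes. Its median log2 fold change was -0.041, and 14 of the 20 lay below 0. Of the 20, 0 passed in edgeR with or without the block, and 0 and 2 had an unadjusted p under 0.05, where 3.19% and 11.2% of all genes did. Utp20, a very large scaffold protein of the processome, had 60.4, 68.3 and 65.9 CPM in PRP 1, 2 and 3, and 66.2, 72.3 and 75.5 CPM in CT 1, 2 and 3. PRP was lower in each numbered pair, but the groups overlapped. Rrp12, whose yeast counterpart serves in export of the subunits, had 45.7, 60.9 and 58.9 CPM in PRP and 52.1, 66.7 and 63.5 CPM in CT. Both groups held their lowest value in replicate 1, and PRP was again lower in each pair. With the block the log2 fold changes were -0.14 ± 0.06 for Utp20 and -0.14 ± 0.06 for Rrp12 (SE), with edgeR adjusted p-values of 0.366 and 0.375. Nop9, whose yeast counterpart binds the 18S precursor, had 47.21, 48.02 and 46.09 CPM in PRP, all under the 48.74, 58.43 and 48.23 CPM of CT. Its log2 fold change was -0.14 ± 0.09 (SE), and 29.9% of its exonic bases lie under exons of Cideb on the other strand, whose reads cannot be told from its own without a stated strand setting.

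Utp14a and Utp14b are a gene and its retrocopy, and the mouse retrocopy is known for its need in spermatogenesis. The transcripts compared align over 2253 bases at 77.5% identity and share no exact stretch of 50 bases, so that exact matches of that length can be separated. Aligner and counting tool were not given, and the separation of the counts was not tested. Utp14b had 7.58, 10.5 and 8.56 CPM in PRP 1, 2 and 3, and 8.42, 9.89 and 10.5 CPM in CT 1, 2 and 3. Utp14a had 40.9, 42.8 and 46.9 CPM in PRP and 45.1, 50.5 and 43.3 CPM in CT. The ratio of Utp14b to Utp14a in CPM was 0.20 ± 0.04 in PRP and 0.21 ± 0.03 in CT (SD, n = 3 each). Per kilobase of transcript their mean levels over the 6 libraries were 2.51 CPM for Utp14b and 17.9 CPM for Utp14a. Utp4, the processome member with the highest level per kilobase of transcript, had 88.5, 91.0 and 96.7 CPM in PRP and 92.5, 98.9 and 97.0 CPM in CT. PRP was lower in each pair, with log2 differences of -0.064, -0.12 and -0.0035.

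The large subunit group held 12 genes, 6 of them below 0 and 6 above, with a median log2 fold change of 0.0077. Nop53, whose yeast counterpart recruits the RNA exosome to the large subunit precursor, had 179.7, 154.4 and 185.6 CPM in PRP 1, 2 and 3, and 169.2, 142.9 and 163.7 CPM in CT 1, 2 and 3. PRP was higher in each numbered pair, and the groups overlapped. Its log2 fold change was the highest of the 50 genes, at 0.13 ± 0.09 without the block and 0.13 ± 0.05 with it (SE), and the edgeR adjusted p-values were 0.9998 and 0.324. Rrp1 and Rrp1b are paralogues in pre-ribosomal RNA processing. Rrp1 had 158.6, 145.9 and 162.0 CPM in PRP and 146.7, 145.8 and 149.9 CPM in CT. Rrp1b had 42.3, 47.7 and 42.2 CPM in PRP and 43.3, 52.7 and 51.4 CPM in CT. The 2 paralogues had point estimates of opposite sign, 0.077 ± 0.062 for Rrp1 and -0.16 ± 0.10 for Rrp1b (SE), and neither passed. Rrp1b was lower in PRP in each pair, with an edgeR adjusted p of 0.423 with the block. The Rrp1b to Rrp1 ratio was 0.28 ± 0.04 in PRP and 0.33 ± 0.03 in CT (SD, n = 3 each).

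Pes1 and Bop1 form, with Wdr12, the complex that processes the large subunit precursor. Pes1 had 101.8, 104.1 and 93.8 CPM in PRP and 88.0, 106.2 and 91.5 CPM in CT, and 20.6% of the 50-base stretches of its transcript recur in other annotated genes. Bop1 had 63.3, 65.1 and 68.3 CPM in PRP and 64.0, 66.9 and 63.6 CPM in CT. Bop1 was among the steadiest of the members, with a coefficient of variation of 3.09% over the 6 libraries. Nop2, a methyltransferase of 28S ribosomal RNA, had 75.2, 81.5 and 80.5 CPM in PRP and 74.3, 81.4 and 81.7 CPM in CT. Nol9, a kinase known in human cells for processing the spacer of the large subunit precursor, had 76.10, 64.55 and 74.12 CPM in PRP and 73.02, 77.24 and 80.74 CPM in CT. Its log2 fold change of -0.11 ± 0.08 (SE) came from pairs that did not share a direction, since PRP was higher in pair 1.

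Of the multifunctional nucleolar proteins, Ncl and Npm1 had log2 fold changes of 0.00092 ± 0.058 and 0.0021 ± 0.062 (SE). Ncl (chromosome 1, 86344719 to 86359455) had 848.5, 910.4 and 925.5 CPM in PRP 1, 2 and 3, and 898.8, 925.5 and 858.4 CPM in CT 1, 2 and 3. Its 95% interval ran from -0.13 to 0.13 on the log2 scale. Npm1 (chromosome 11, 33152498 to 33164142) had 492.6, 530.6 and 554.1 CPM in PRP and 508.0, 520.2 and 546.8 CPM in CT, with an interval of -0.14 to 0.14. Both intervals stay well inside a 1.25-fold change, although 49.2% of the 50-base stretches of the Npm1 transcript recur in other annotated genes. Mybbp1a, a regulator of RNA polymerase I, had 210.9, 222.5 and 215.8 CPM in PRP and 202.8, 214.9 and 235.1 CPM in CT. Gnl3, nucleostemin, had 103.4, 107.6 and 106.4 CPM in PRP and 98.3, 113.2 and 113.3 CPM in CT. In both genes the PRP values lay inside the CT range.

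Ddx21 (chromosome 10, 62580247 to 62602298), an RNA helicase that links RNA polymerase I transcription with processing of its product, had the smallest p-value of the 50 genes. It had 169.8, 182.1 and 192.2 CPM in PRP 1, 2 and 3, and 192.7, 197.3 and 211.7 CPM in CT 1, 2 and 3. Every PRP library lay under every CT library, by a narrow margin. The log2 fold change was -0.15 ± 0.07 without the block and -0.15 ± 0.05 with it (SE, n = 3 each), and pair differences were -0.18, -0.12 and -0.14. Neither fit passed, with edgeR adjusted p-values of 0.9998 and 0.226. Ddx21 and Nop9 were the 2 members whose groups did not overlap, both lower in PRP, where groups of 9.21% of all genes tested did not overlap, 4.87% of all genes lower in PRP and 4.34% higher.

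Nol3 and Nol4 were near the limit of detection, with 8 to 16 and 6 to 37 counts per library. Nol3 averaged 0.30 ± 0.10 CPM in PRP and 0.35 ± 0.09 CPM in CT, and Nol4 averaged 0.54 ± 0.34 CPM in PRP and 0.66 ± 0.32 CPM in CT (SD, n = 3 each). Of the exonic bases of Nol3, 48.2% lie under exons of 4931428F04Rik on the other strand, so its reads carry the same doubt as those of Nop9. The intervals of Nol3 and Nol4 reached from -1.44 to 1.07 and from -1.72 to 1.15 on the log2 scale, so that a change of a size bounded for the other 48 genes was not detectable for them at this depth.

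With the replicate block, 6 members had an unadjusted p under 0.05, where 11.2% of all genes did. The 5 with lower values in PRP were Ddx21, Dkc1, Utp20, Rrp1b and Rrp12, where 5.91% of all genes were lower in that way, and the 1 with higher values was Nop53, where 5.31% were higher. The share of 12% in all is near the background, and 0 of the 6 passed after adjustment. Lower values in all 3 numbered pairs were found in 13 members, where 16.3% of all genes had them, and higher values in all 3 pairs in Nop53 and Rrp1, where 16.8% of all genes had them. The pairs did not contribute evenly. The median log2 difference over the members was -0.023 in pair 1, -0.043 in pair 2 and 0.00041 in pair 3.

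Libraries of one group differed among themselves. PRP 1 held the lowest of the 6 values in 18 members and CT 1 in 15, while CT 2 held the highest in 17 and CT 3 in 13. The median deviation of the members from their own means was -0.051 in PRP 1, 0.0041 in PRP 2 and 0.022 in PRP 3, and -0.032 in CT 1, 0.048 in CT 2 and 0.031 in CT 3 on the log2 scale. Libraries numbered 1 were thus the low ones in both groups. Stromal markers ran the other way in 2 of these libraries, with 7 of the 8 highest in PRP 1 and 7 of the 8 lowest in CT 2. The summed stromal level was 5052 to 6306 CPM in PRP and 4719 to 5965 CPM in CT, and the median log2 difference of the list was 0.26, 0.18 and 0.18 in pairs 1, 2 and 3. The part of tissue composition in the levels of the nucleolar genes was not tested. In CT 3, where erythroid and interferon-stimulated genes stood apart, 7 members were lowest and 13 highest. Without CT 3 the median log2 fold change of the members was -0.011, and 0 members passed in edgeR.

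**Figure D3:**
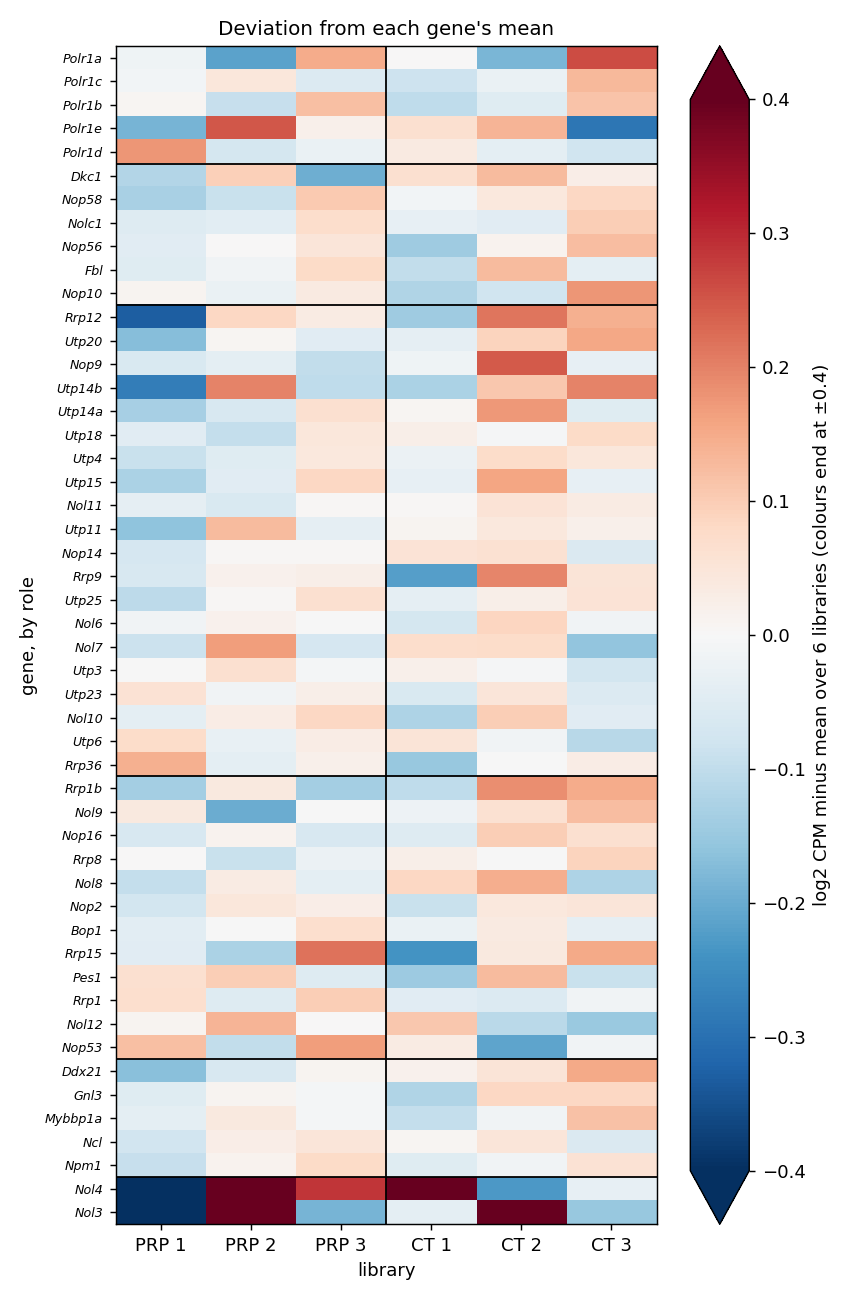
Log2 CPM of each gene minus its mean over the 6 libraries, as colour, with PRP libraries at the left and CT libraries at the right, and genes grouped by role. Most cells lie within 0.2 of the mean. PRP 1 and CT 1 are the bluest columns and CT 2 the reddest, and no row group separates PRP from CT.

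Transcript length moved with the small differences. Across the 50 members, the Spearman correlation of the log2 fold change with transcript length was -0.373, and across the 15339 tested genes with a transcript it was -0.255. For GC content the values were 0.207 and 0.249. These are descriptions across genes measured in the same 6 libraries, and genes are not independent replicates. After the log2 fold changes were corrected for both properties the member median was -0.0206. The part of length in single genes such as Utp20, whose transcript of 8821 bases is among the longest of the group, was not tested.

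Further genes of the pathway were taken from 7 lists drawn from general knowledge. The 135 other protein genes of ribosome biogenesis covered remaining polymerase I factors, small and large subunit factors, snoRNP assembly and the RNA exosome. Of these 0 passed in edgeR, 71 lay below 0, and the median log2 fold change was -0.0067. At an unadjusted p under 0.05 there were 3 of the 135, where 3.19% of all genes reached it, namely the gene of the shared polymerase subunit Polr2h (higher), the processome scaffold gene Heatr1 (lower) and the snoRNA cap methylase gene Tgs1 (lower). Heatr1 had 61.7, 68.2 and 69.2 CPM in PRP 1, 2 and 3, and 72.0, 73.4 and 80.0 CPM in CT 1, 2 and 3, with a log2 fold change of -0.18 ± 0.07 (SE). Its groups did not overlap. Rrn3 and Ubtf, the initiation factors through which growth signals reach polymerase I, differed by log2 fold changes of -0.042 ± 0.058 and 0.031 ± 0.055 (SE). For the H/ACA proteins Nhp2 and Gar1 they were 0.058 ± 0.092 and -0.057 ± 0.099 (SE). Of the large subunit list, Wdr12 had the smallest p-value, with 30.8, 30.2 and 33.4 CPM in PRP 1, 2 and 3 and 37.5, 35.7 and 33.2 CPM in CT 1, 2 and 3, and its groups overlapped. Of the exosome list it was the helicase gene Mtrex, with 108.2, 121.7 and 114.4 CPM in PRP and 126.2, 131.6 and 123.1 CPM in CT. Their log2 fold changes were -0.17 ± 0.09 for Wdr12 and -0.15 ± 0.07 for Mtrex (SE).

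The MYC network list mixes factors known to drive ribosome genes with others that do not, such as the repressive Mga. It had 9 of 13 genes above 0 and a median log2 fold change of 0.045, with 0 past the threshold. The count therefore gives no direction for the drivers alone. Myc had 70.4, 54.6 and 82.5 CPM in PRP 1, 2 and 3, and 62.4, 58.3 and 83.1 CPM in CT 1, 2 and 3. Replicate 2 was lowest and replicate 3 highest in both groups, and the log2 fold change was 0.026 ± 0.183 (SE). For Mycn it was 0.18 ± 0.16, and for Mga, a repressive partner of MAX with the smallest p-value of the list, -0.16 ± 0.07 (SE).

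The snoRNA host RNAs, non-coding transcripts whose introns release the guide RNAs of the same snoRNPs, had log2 fold changes above 0 in 13 of 15 genes, with a median of 0.12. The other 2 lay below 0, where 49.6% of all genes tested did. Of the 15, 0 passed in edgeR and 1, Zfas1, had an unadjusted p under 0.05, where 3.19% of all genes did. Zfas1 had 41.19, 35.33 and 36.45 CPM in PRP 1, 2 and 3, and 29.97, 28.98 and 33.95 CPM in CT 1, 2 and 3, so that its groups did not overlap, with PRP higher, where 4.34% of all genes were higher in that way. Its log2 fold change was 0.28 ± 0.10 (SE), with an edgeR adjusted p of 0.9998 without the block and 0.197 with it. Over the list, the median log2 difference was 0.29 in pair 1, 0.13 in pair 2 and 0.018 in pair 3. In all 3 pairs 7 of the 15 were higher in PRP and 0 were lower, where 16.8% and 16.3% of all genes were. With the block, 2 of the 15 had an unadjusted edgeR p under 0.05 and a higher value in PRP, where 5.31% of all genes did. PRP 1 held the highest value of 9 of the 15 and CT 2 the lowest of 11, the libraries in which most stromal markers were highest and lowest. Stromal markers were also higher in PRP in each pair by the list's median, as given above, and the part of tissue composition in this was not tested. Among the members, 6 also hold annotated snoRNA genes within their span, namely Nop56 with 5, Nop58 with 4, Ncl and Gnl3 with 3 each, and Dkc1 and Nop53 with 1 each. Their own log2 fold changes lay between the -0.14 of Dkc1 and the 0.13 of Nop53.

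**Figure D4:**
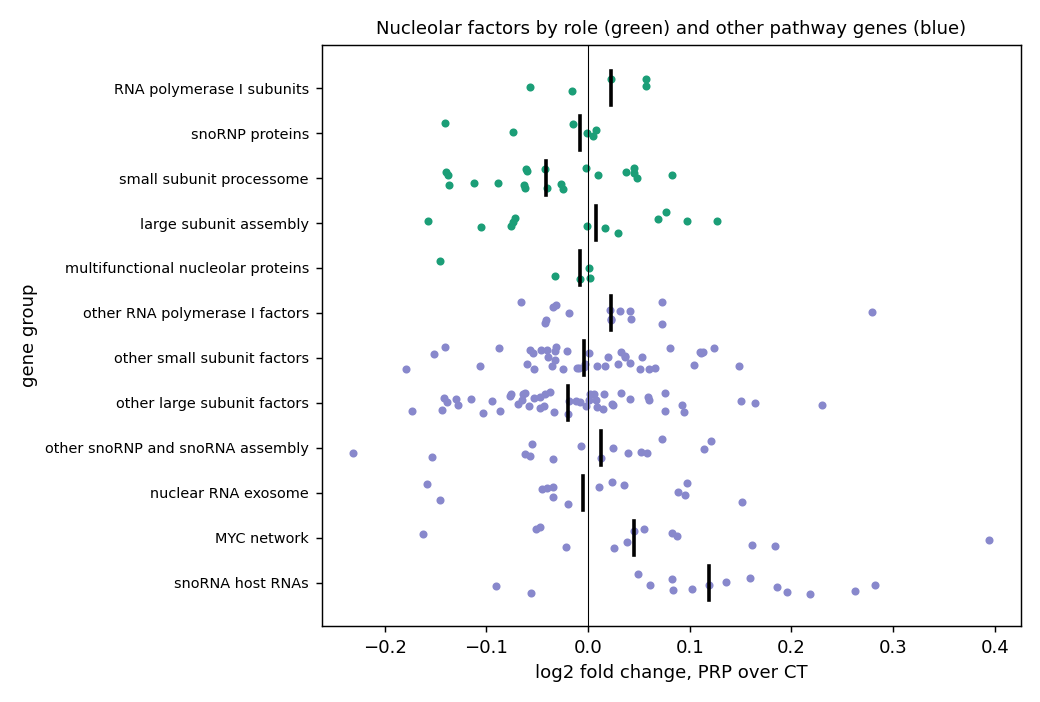
Log2 fold change, PRP over CT, of each gene (points) and the median (bar) for the 5 role groups of nucleolar factors (green) and the 7 lists of other pathway genes (blue). The medians of the nucleolar groups lie between -0.041 and 0.023, and the bar of the snoRNA host RNAs is at 0.12.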

How the data were processed

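Raw counts for 6 libraries of cultured mouse ovary were deposited by the authors as 1 table keyed by gene symbol, and the submitters' processing notes name GRCm38 and mm10. Aligner, counting tool and strand setting were not given in the sources used here. Library preparation used a SMARTER mRNA kit, per the labels' protocols. The column used for PRP 3 is headed PPR3. Groups and numbers came from the titles. No library was a copy of another, since chi-square values were 8.905 to 32.04 for each degree of freedom.

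For testing, edgeR 4.0.16 under R 4.3.3 was applied to the counts (low-count filter by filterByExpr, TMM scaling, robust quasi-likelihood F test, 17475 genes, PRP over CT, two-sided) with Benjamini-Hochberg adjustment over all genes tested. CPM values use TMM library sizes, pair differences use log2 CPM with a prior count of 2, and SE values derive from the fold change and its F statistic. Alternatives were DESeq2 1.42.0, limma-voom 3.58.1 with robust estimation, other scaling and filters, left-out libraries and the replicate block. Deviations correlated at 0.24, 0.40 and 0.33 within numbers and at -0.02 or below across them, so the numbers were taken as pairs from the data, not from a label. The procedure was tested on simulated data, but no result of that test is given here.

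Lengths come from GENCODE M21 transcripts, spans and promoters from RefSeq (GRCm38.p6). Stretches of 50 bases were compared with all other GENCODE genes. Named genes were the 8 members with the smallest p-values, a fixed set of core factors, the extremes of level per role, and of each list the smallest p-value. Rrp12, Nol7, Nol11, Nol12 and Utp18, and the markers Zp2, Zp3 and Krt19, were named after their values were seen. Members and lists were chosen with earlier results of these data known. No list was tested as a set.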

Additional observations from a re-analysis of the deposited data

How the results depend on the processing

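Of the 50 members 0 passed under every alternative run: other scaling factors, other filters, DESeq2, limma-voom, no robust estimation, each library left out, and the replicate block with all or part of the libraries. The number of members below 0 was 31, and 22 to 37 with a library left out. The member median of -0.0205 moved by less than the spread between libraries of a group (0.0402 on the log2 scale), with a range of -0.0515 to 0.00662 as single libraries were left out. It turned positive when PRP 1 alone was left out. With the block and the whole of pair 1 left out it was -0.0335, with 33 of the 50 members below 0. Leaving out PRP 1 also turned the summed difference to 26.1 CPM, from -54.7 CPM with all libraries, and leaving out PRP 3 gave -128.9 CPM. These shifts were smaller than the spread of 134.2 CPM. Of the counts and sums over the members or all genes, the number of genes passing was the one that moved: 0 without the block, 21 with it, 26 with it in limma-voom, and 1 to 19 with it when a numbered pair was left out. The cause was not tested. Without Nol3 and Nol4 the median was -0.0153, an alternative chosen after seeing the data, as was the correction for GC content and length. Among single results, 11 fold changes of named members moved by at least their own SE in the fit with all libraries. For groups or lists, 5 medians moved by at least the spread between libraries. All of these moved with libraries left out. Nop9 came to -0.040 without CT 2, and the large subunit median to 0.038 without PRP 1 and -0.049 without CT 1. Of 30 named members, up to 10 changed sign under a single alternative, all from estimates that passed no test. At the unadjusted level, Ddx21 had a p under 0.05 on library totals alone and without PRP 3, Dkc1 and Nop53 without PRP 2, and Rrp1b without CT 1. With the block the members at that level were Ddx21, Nol12, Nol9, Nop53 and Rrp1b without pair 1, Ddx21, Dkc1 and Utp20 without pair 2, and Ddx21 and Utp14a without pair 3. The filter at a mean of 5 CPM left out Nol3 and Nol4, so their values are missing there. Depth limits Nol3, Nol4 and Utp14b most.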
